A study of Mus musculus with 12 samples.

Results

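The liver response to corticosterone (CORT, the main glucocorticoid of mice) was measured by RNA-seq in mice whose glucocorticoid receptor (GR, gene *Nr3c1*) had been deleted in skeletal muscle. The comparison set the CORT library of GR-mKO liver (GRmKO in the labels) against the vehicle library of the same genotype, 2 of the 12 libraries of the series. Of the 22252 genes listed for liver, the 12485 that were above 0 in all 4 liver libraries were compared. The matching pair of livers from GRfl/fl mice (GRf/f in the labels) was analysed in the same way and is given beside it.

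All groups were male mice on a C57BL/6J background that carried a floxed *Nr3c1*, in which loxP sites surround the exon coding for the DNA-binding domain. GRfl/fl mice had no Cre. GR-mKO mice carried in addition Acta1-Cre, which is driven by the skeletal actin promoter and acts in myofibers, so that the liver keeps GR. From 8 weeks of age the mice drank either 1% ethanol (vehicle) or 1% ethanol containing CORT at 100 µg/mL, for 4 weeks. Each library came from 1 pool of RNA from 3 mice, and no group had a second library. No difference reported here could therefore be tested against the spread between mice, and no p-values are given. The hour of tissue collection for these libraries was not given in the sources used here.

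GR is a nuclear receptor that binds DNA once CORT has entered the cell, and in the liver it is known for raising genes of glucose production and amino acid breakdown and for restraining inflammation. The mouse liver also differs strongly between the sexes. The male pattern of growth hormone pulses and androgens maintains genes such as the major urinary proteins, and several cytochrome P450 and sulfotransferase genes are normally far higher in females. Insulin, bile acids, fatty acids and the circadian clock act on many of the same genes.

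Values are in CPM (counts × 1e6 / library total). A change is the log2 of the CORT over the vehicle value after adding 0.5 CPM to both, so that changes of genes under about 1 CPM are understated. "Rose" and "fell" are used only for changes past 2-fold. Intervals are 95% counting intervals (exact binomial). They cover counting error only, since reads without molecular identifiers are not independent molecules, and they leave out the differences between mice.

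The 4 liver libraries held between 20471247 and 20940660 counts, and the 10 most abundant transcripts of a library took 26.9% to 28.0% of them. A count of 3, taken as the floor, was between 0.143 and 0.147 CPM. Mitochondrial transcripts took 18.1% of the GR-mKO vehicle library and 16.4% of the GR-mKO CORT library (19.1% and 17.5% in GRfl/fl). In the gastrocnemius, the targeted gene *Nr3c1* was at 113 CPM in the GRfl/fl vehicle library, 90.4 in the GRfl/fl CORT library, 46.4 in the GR-mKO vehicle library and 35.5 in the GR-mKO CORT library. In the liver the same 4 groups were at 58.0, 45.2, 60.8 and 49.6 CPM, so GR-mKO liver was at 105% (vehicle) and 109.7% (CORT) of GRfl/fl liver. All 11 measured hepatocyte markers were above 0 in each of the 4 liver libraries, among them *Alb* (albumin) at 71267 CPM in the GR-mKO vehicle and 111499 CPM in the GR-mKO CORT library.

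CORT raised and lowered similar numbers of genes in GR-mKO liver. 349 genes rose (2.8% of those compared) and 352 fell (2.82%), together 5.61%. In GRfl/fl liver 737 genes rose (5.9%) and 714 fell (5.72%), together 11.6%. The GR-mKO and GRfl/fl vehicle libraries, 2 pools of different mice with the same treatment, were more than 2-fold apart for 2.3% of the same genes (1.26% higher and 1.04% lower in GR-mKO), and the CORT libraries for 4.72% (2.44% higher and 2.27% lower). The SD of the change over all genes compared was 0.54 in GR-mKO, 0.72 in GRfl/fl and 0.38 between the vehicle libraries, and the median was close to 0 in each pair. The larger number of changed genes in GRfl/fl is a description of these libraries, because with 1 library per group the difference between the genotypes cannot be tested.

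The genotypes share no library, and the largest changes pointed the same way in both. 370 genes were past 2-fold in the same direction, which is 52.8% of the GR-mKO list and 25.5% of the GRfl/fl list. Of the 701 genes past 2-fold in GR-mKO liver, 584 had the same sign in GRfl/fl liver and 21 were past 2-fold the other way. The genes that rose in GR-mKO had a median change of 1.34 there and 1.02 in GRfl/fl, and the genes that fell had medians of -1.29 and -1.08. Read from the other side, the genes that rose in GRfl/fl had a median of 1.39 there and 0.51 in GR-mKO, and those that fell had -1.35 and -0.62. Taken in the direction of GR-mKO, the median GRfl/fl change of all 701 was 1.05. Each list was chosen on the values of 1 genotype, so its median in that genotype is large by construction and these medians do not order the genotypes. Across all genes compared, the changes correlated with Pearson's r = 0.55, as a description over genes, which are not independent of each other.

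**Figure D1:**
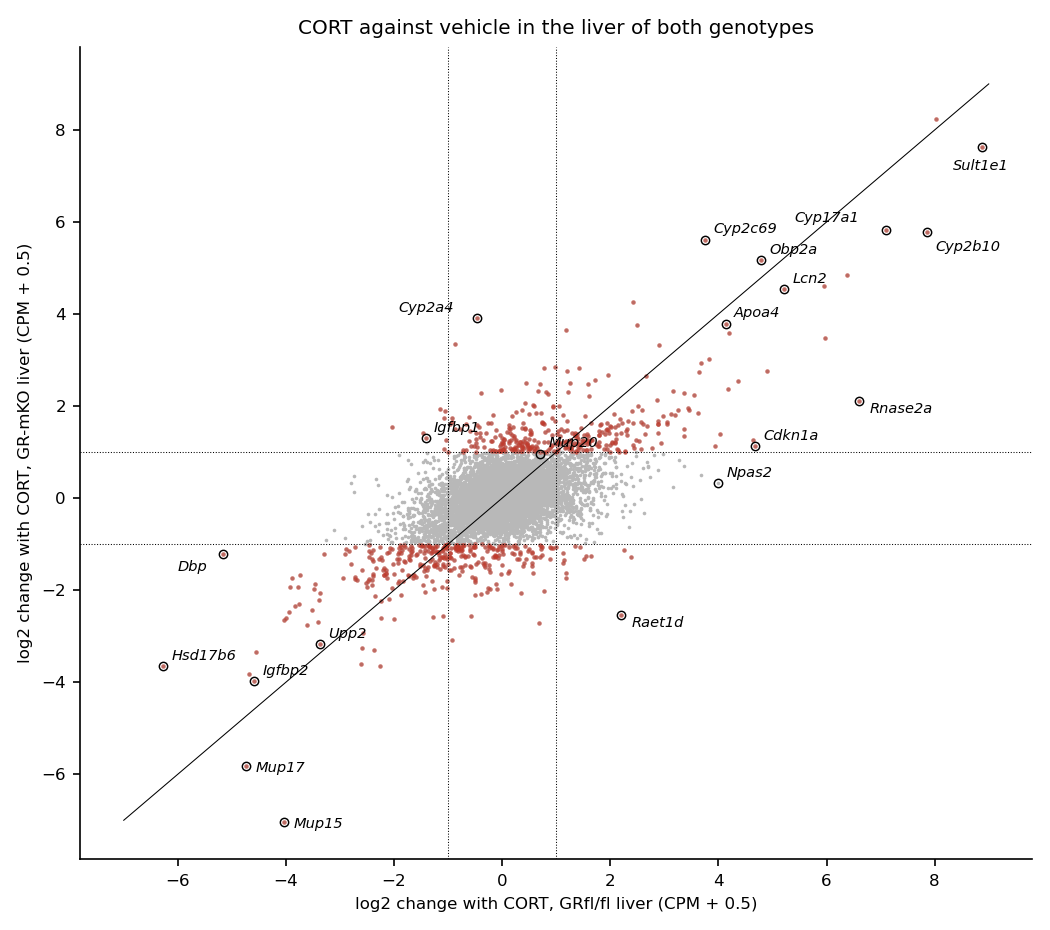
Change with CORT in GR-mKO liver (vertical axis) against that in GRfl/fl liver (horizontal axis), both as log2 of CPM + 0.5, with 1 point per gene compared (12485 genes). Red points are past 2-fold in GR-mKO, dotted lines mark 2-fold and the solid line marks equal change. Of the named genes, *Apoa4*, *Lcn2*, *Igfbp2* and *Upp2* lie near that line. *Cyp2a4*, *Raet1d*, *Rnase2a*, *Dbp*, *Mup15*, *Hsd17b6*, *Cyp2b10*, *Cdkn1a*, *Npas2* and *Igfbp1* lie off it.

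Each deposited entry bears 1 transcript identifier and 1 gene name. The methods of the study name a step that sums transcripts to genes, and whether the values are such sums or those of single transcripts could not be settled from the sources used here. If they are single transcripts, a change can be a shift between transcripts of a gene, so the number of transcripts was set beside the changes. Among the 3689 compared genes with 1 protein-coding transcript in the annotation, 207 were past 2-fold in GR-mKO and 137 of those (66.2%) were past 2-fold the same way in GRfl/fl. Among the 3617 genes with 4 or more, 229 were past 2-fold and 98 (42.8%) moved the same way. Between the vehicle libraries, 1.49% of the former and 3.54% of the latter were past 2-fold. For some of the named genes with 4 or more, the number of coding transcripts is given below.

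Among the largest rises in GR-mKO liver were genes of drug, steroid and lipid handling that are normally low in male liver. *Sult1e1* (chr5:87575969-87591594), the estrogen sulfotransferase, went from 0.193 to 137 CPM in GR-mKO and from 0.191 to 324 CPM in GRfl/fl. Both vehicle libraries were near the floor and both CORT libraries were high, which gave changes of 7.63 (interval 7.11 to 7.96) in GR-mKO and 8.87 (interval 8.36 to 9.20) in GRfl/fl. *Cyp17a1* (chr19:46667165-46673172), a steroid hydroxylase and lyase, went from 3.87 to 248 CPM, with 1.53 and 279 CPM in GRfl/fl. Its change was 5.83 (5.54 to 6.12) in GR-mKO, and its CORT libraries were close to each other in the 2 genotypes. *Cyp2b10* (chr7:25897620-25926624), the classical target of the xenobiotic receptor CAR, went from 6.10 to 362 CPM in GR-mKO and from 3.30 to 877 CPM in GRfl/fl, changes of 5.78 and 7.85.

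Each of 8 further genes among the 12 largest rises of GR-mKO liver was also past 2-fold in GRfl/fl, except *Cyp2a4*. The female-biased P450 genes *Cyp2c69* and *Cyp2c40* had changes of 5.62 and 4.27, against 3.75 and 2.41 in GRfl/fl. For *Cyp2c69* the CORT libraries were alike, at 96.4 CPM in GR-mKO and 116 CPM in GRfl/fl, while the vehicle libraries were at 1.48 and 8.16 CPM. Reads of these P450 genes are hard to separate, since 65.9% of the 31-base words of the *Cyp2c69* transcript and 84.5% of those of *Cyp2c40* also occur in coding transcripts of other genes. The lipocalin *Obp2a* went from 4.32 to 172 CPM (5.16), and *Lcn2*, a lipocalin that binds bacterial siderophores, from 3.16 to 84.9 CPM (4.54). *Apoa4*, an apolipoprotein of triglyceride-rich lipoproteins, went from 54.2 to 757 CPM (3.79), close to the 53.6 and 952 CPM of GRfl/fl. *Rasl10b*, a Ras-like GTPase with 4 coding transcripts, had a change of 4.62 (5.95 in GRfl/fl). *Myom3*, which codes for a protein of the muscle sarcomere, went from 0.194 to 19.4 CPM in GR-mKO and from 0.0478 to 45.1 CPM in GRfl/fl. The 13 skeletal muscle markers summed to 0.0484 CPM in the GR-mKO vehicle library, where 12 of them were at 0, and to 9.60 CPM in the GR-mKO CORT library, where none was. In the GRfl/fl CORT library, where *Myom3* was highest, 11 of the 13 were at 0 and their sum was 0.650 CPM.

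All 12 of the largest falls had the same sign in GRfl/fl, and 11 of them were past 2-fold there. The first places were taken by major urinary proteins, described below. *Igfbp2* (chr1:72824503-72852474), a binding protein of insulin-like growth factors, went from 473 to 29.5 CPM in GR-mKO and from 390.1 to 15.8 CPM in GRfl/fl, changes of -3.98 (-4.10 to -3.86) and -4.58. *Hsd17b6*, a hydroxysteroid dehydrogenase with 6 coding transcripts, went from 122 to 9.27 CPM in GR-mKO and from 119 to 1.05 CPM in GRfl/fl. The vehicle libraries were alike and the GRfl/fl CORT library was the lowest of the 4. *Upp2*, a uridine phosphorylase, had a change of -3.18 in GR-mKO and -3.37 in GRfl/fl, with 48.3 and 41.4 CPM left after CORT. The adhesion receptor *Adgrf1* fell from 9.90 to 0.240 CPM (-3.81) and the lectin *Clec2h* from 11.1 to 0.649 CPM (-3.34). *Apol9a* (-3.31) and the interferon-inducible GTPase gene *Gvin2* (-3.09) completed the 12, and *Gvin2* was the member under 2-fold in GRfl/fl (-0.93).

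Male-biased liver genes fell as a group in GR-mKO liver. Of the 30 genes of the list, 21 fell and none rose, with a median change of -1.31, against 2.82% of all genes compared and a median of 0.05. In GRfl/fl 21 fell and none rose (median -1.53). Between the vehicle libraries 4 members were already more than 2-fold lower in GR-mKO and none was higher. Besides the urinary proteins, *Nudt7*, a peroxisomal coenzyme A hydrolase, fell from 209 to 42.1 CPM (-2.30). *Hsd3b5*, a steroid dehydrogenase of male liver, was at 129 and 33.8 CPM in GR-mKO and 309 and 22.1 CPM in GRfl/fl, changes of -1.92 and -3.77, with the GR-mKO vehicle library below the GRfl/fl vehicle library. *Cyp7b1*, an oxysterol hydroxylase, fell by 1.51 on the log2 scale, *Cyp4a12a* by 1.34 and the organic anion transporter *Slco1a1* by 1.28. *Elovl3*, a fatty acid elongase, moved in opposite directions, from 62.4 to 25.5 CPM in GR-mKO (-1.27) and from 72.1 to 112 CPM in GRfl/fl (0.63). *Selenbp2*, a selenium-binding protein gene, had changes of -2.11 and -0.50, and its GR-mKO CORT library, at 113 CPM, was well under the 957 CPM of the GRfl/fl CORT library.

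**Figure D2:**
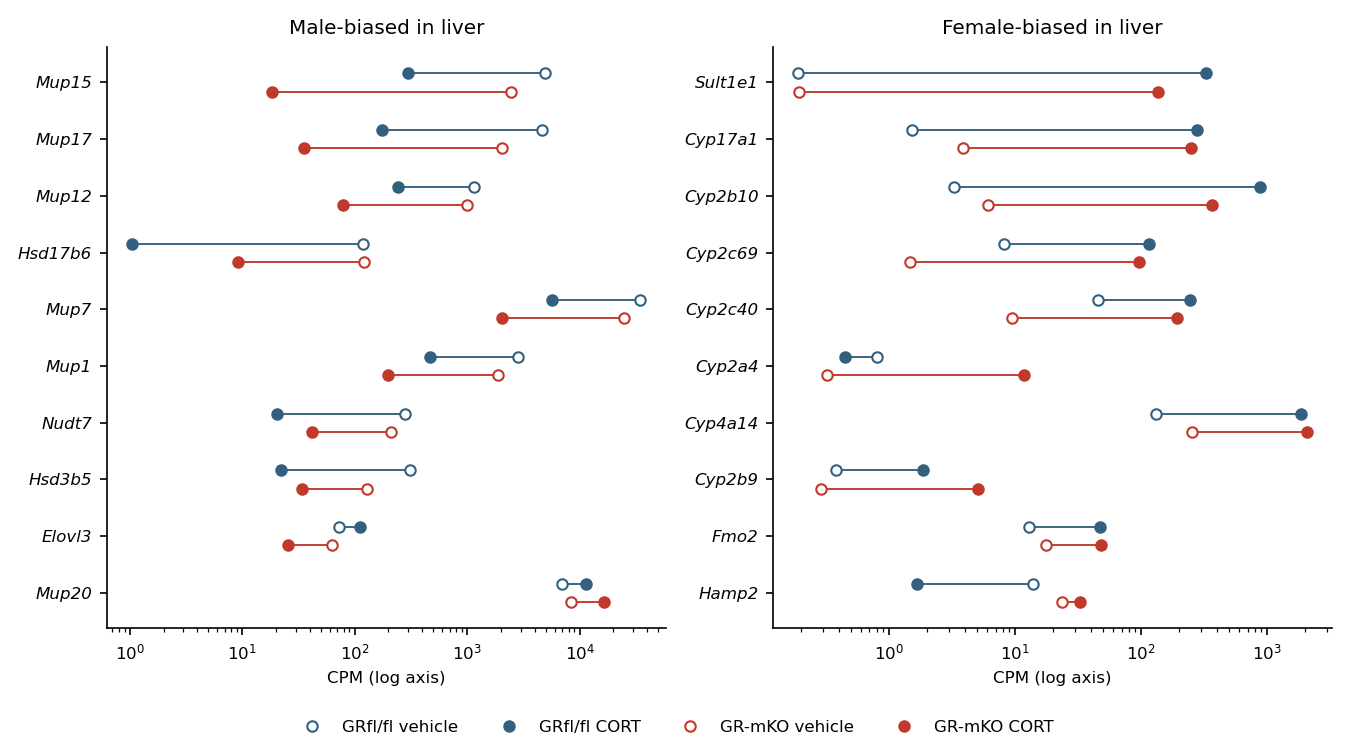
Levels in CPM (log axis) of 10 male-biased genes (left) and 10 female-biased genes (right) in the 4 liver libraries, 1 point per library, open for vehicle and filled for CORT, joined within a genotype. CORT lowered most of the male-biased genes and raised most of the female-biased genes in both genotypes, and *Mup20*, *Elovl3*, *Cyp2a4* and *Hamp2* depart from that.

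Over the 18 enzymes that convert or inactivate steroids, 2 rose (*Sult1e1* and *Cyp17a1*) and 3 fell (*Hsd17b6*, *Hsd3b5* and *Cyp7b1*) in GR-mKO. Together this was 27.8% against 5.61% of all genes compared. The same 5 were past 2-fold in the same direction in GRfl/fl. *Akr1c6*, a hydroxysteroid dehydrogenase, stayed just within 2-fold (906 and 469.9 CPM, -0.95). *Akr1d1*, the steroid reductase of bile acid synthesis, was at 179.7 and 264 CPM in GR-mKO and at 110.1 and 339.9 CPM in GRfl/fl (0.55 and 1.62). The reductase *Srd5a1*, which makes dihydrotestosterone, was at 132 and 98.3 CPM.

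The major urinary proteins, small pheromone-binding proteins that male liver secretes for excretion in the urine, made up much of the fall in counts. The 22 *Mup* genes held 10.3% of the counts of the GR-mKO vehicle library and 4.34% of those of the GR-mKO CORT library, and 13.1% and 5.60% in GRfl/fl. The change of the family sum was -1.25 in GR-mKO and -1.22 in GRfl/fl. 17 of the 22 fell in GR-mKO and none rose past 2-fold, against 2.82% of all genes compared that fell. In GRfl/fl 16 fell and none rose, against 5.72% of all genes compared that fell. *Mup15* went from 2468 to 18.2 CPM in GR-mKO and from 4921 to 298 CPM in GRfl/fl, and both GR-mKO libraries were under the GRfl/fl library of the same treatment. Its change was -7.04 (-7.19 to -6.90) in GR-mKO and -4.04 in GRfl/fl. *Mup17* had changes of -5.82 and -4.74, *Mup12* of -3.66 and -2.26, *Mup7* of -3.59 and -2.60, and *Mup1* of -3.26 and -2.60.

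Not every member followed. *Mup20*, the member known as darcin and a male sex pheromone, was at 8442 CPM with vehicle and 16529 CPM with CORT in GR-mKO, and at 7024 and 11479 CPM in GRfl/fl. The CORT library was the higher of the pair in both genotypes (changes of 0.97 and 0.71, each under 2-fold), and so it was under each scaling tried. *Mup20* therefore went from 8.21% to 38.1% of the counts of the family in GR-mKO, and from 5.37% to 20.5% in GRfl/fl. *Mup18* had changes of 0.17 and 0.07, and *Mup3* of -0.67 and -0.40. Most of the family cannot be told apart read by read. Of the 31-base words of *Mup15*, 100.00% also occur in coding transcripts of other genes, with 86.2% for *Mup17*, 96.5% for *Mup7* and 27.8% for *Mup20*, so the split among the near-identical members is uncertain and the family sum and *Mup20* are the firmer values. In bulk liver, fewer cells of a type and less RNA per cell cannot be told apart, here and for every group below.

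How alike the members are is also seen in their promoters, from 250 bases before to 50 after the start site given by RefSeq (GRCm38.p6). *Mup15* and *Mup17* fell most, *Mup7* was the most abundant of the 12 largest falls, and *Mup3* stayed within 2-fold. Each was aligned to *Mup15* with free ends, because the annotated starts are offset. Capitals mark bases that differ from the aligned base of *Mup15*, of which there were 0 in 297 aligned bases for *Mup17*, 4 in 173 for *Mup7* and 32 in 253 for *Mup3*. Gaps in the alignment were neither counted nor marked, and *Mup17* differs from *Mup15* in the lengths of runs of A. All 4 lie on the minus strand of chromosome 4, *Mup15* at chr4:61439655-61439954, *Mup17* at chr4:61595783-61596082, *Mup7* at chr4:60070426-60070725 and *Mup3* at chr4:62087268-62087567. The sequences read 5′ to 3′.
Mup15: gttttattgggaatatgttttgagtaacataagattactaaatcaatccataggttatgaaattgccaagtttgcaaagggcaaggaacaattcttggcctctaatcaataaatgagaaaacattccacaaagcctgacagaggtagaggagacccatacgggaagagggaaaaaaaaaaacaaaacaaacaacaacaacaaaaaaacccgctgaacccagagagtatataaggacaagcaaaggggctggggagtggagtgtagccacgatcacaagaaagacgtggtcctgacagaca
Mup17: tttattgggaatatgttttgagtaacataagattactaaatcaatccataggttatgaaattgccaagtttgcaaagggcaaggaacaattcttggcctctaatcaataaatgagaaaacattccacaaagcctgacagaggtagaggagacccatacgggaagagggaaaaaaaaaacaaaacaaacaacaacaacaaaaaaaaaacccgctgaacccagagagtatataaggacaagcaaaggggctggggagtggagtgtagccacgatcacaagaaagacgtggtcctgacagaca
Mup7: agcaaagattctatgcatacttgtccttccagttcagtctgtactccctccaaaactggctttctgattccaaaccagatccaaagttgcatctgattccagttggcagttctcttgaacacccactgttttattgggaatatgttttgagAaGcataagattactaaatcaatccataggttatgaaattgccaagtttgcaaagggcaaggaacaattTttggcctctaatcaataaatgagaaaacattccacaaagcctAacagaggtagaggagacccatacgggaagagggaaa
Mup3: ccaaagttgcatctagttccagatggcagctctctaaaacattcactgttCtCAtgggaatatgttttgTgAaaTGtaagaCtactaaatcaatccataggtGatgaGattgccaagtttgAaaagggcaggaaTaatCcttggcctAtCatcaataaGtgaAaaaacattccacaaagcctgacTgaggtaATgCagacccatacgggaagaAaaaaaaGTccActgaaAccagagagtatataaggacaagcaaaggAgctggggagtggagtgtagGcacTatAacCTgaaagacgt

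Female-biased genes moved the other way. Of the 30 genes of the list, 19 were above 0 in all 4 libraries, and of those 12 rose and none fell in GR-mKO (2.8% of all genes compared rose), with a median change of 1.43. In GRfl/fl 12 rose and 2 fell (median 1.84). The GR-mKO median was 2.84 with 0.1 CPM added in place of 0.5 CPM, and 0.65 when members at 0 in some of the libraries were counted in. Several members were hardly expressed. *Sult2a1*, *Sult2a2*, *Sult2a5*, *Cyp2b13*, *Cyp3a16*, *Cyp3a44*, *Cyp3a41b*, *Hao2* and *A1bg*, all higher in female liver, were at or near 0 in each of the 4 libraries, at 0.293 CPM or less, and *Sult3a1* reached 0.384 CPM in the GR-mKO CORT library. *Cyp2a5* was lower with CORT in both genotypes, from 2167 to 1222 CPM in GR-mKO (-0.83) and from 1510.3 to 800.4 CPM in GRfl/fl (-0.92). The flavin monooxygenase *Fmo2* rose from 17.5 to 47.9 CPM and *Cyp2b9* from 0.291 to 5.10 CPM. *Cux2*, a transcription factor of female liver that was at 0 in the GRfl/fl vehicle library and so was not compared, was at 0.486 and 2.88 CPM in GR-mKO.

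The growth hormone pathway, which sets these sex differences, held its largest changes in binding proteins and in a repressor. Of 20 genes compared, 1 rose and 2 fell in GR-mKO (*Igfbp1*, and *Igfbp2* and *Bcl6*), 15.0% against 5.61% of all genes compared, with a median of -0.24, and 6 fell in GRfl/fl (median -0.75). *Bcl6*, a repressor that holds female-biased genes low in male liver, was at 39.9 and 6.38 CPM in GR-mKO and at 35.5 and 23.6 CPM in GRfl/fl. It fell by 2.55 on the log2 scale in GR-mKO (-2.80 to -2.30) and its change was -0.58 (-0.74 to -0.41) in GRfl/fl, where it stayed within 2-fold. The receptor *Ghr* was at 368 and 207 CPM (-0.83) and *Igf1*, the main hormone the liver makes under growth hormone, at 342 and 228 CPM (-0.59), both close to GRfl/fl (-0.88 and -0.82). The feedback inhibitors *Socs2* and *Cish* had changes of -0.23 and -0.83 in GR-mKO and -2.28 and -2.08 in GRfl/fl. *Stat5b*, the factor that carries the growth hormone signal to the nucleus, was at 32.5 and 27.0 CPM.

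Genes known as direct targets of GR changed in both directions. Of 29 compared, 9 rose and 3 fell in GR-mKO, together 41.4% against 5.61% of all genes compared, with a median of -0.09, and 10 rose and 8 fell in GRfl/fl (median -0.09). *Fkbp5*, a chaperone that feeds back on GR and has 7 coding transcripts, was at 70.2 and 147 CPM in GR-mKO and 47.7 and 286 CPM in GRfl/fl. It rose in both, by 1.06 and 2.57 on the log2 scale, and the GRfl/fl CORT library was the highest of the 4. *Fam107a* rose from 1.79 to 15.0 CPM (2.76) and *Gadd45b*, a stress-response gene, from 0.628 to 6.55 CPM (2.64), close to its change in GRfl/fl (2.66). *Tsc22d3*, the glucocorticoid-induced leucine zipper, was lower with CORT in both genotypes, at 107 and 49.1 CPM in GR-mKO (-1.12) and 84.1 and 46.2 CPM in GRfl/fl (-0.86). *Cebpb*, a liver transcription factor, had changes of -0.86 and -1.96, and *Errfi1*, an inhibitor of the epidermal growth factor receptor, of -0.40 and -1.84. *Cdkn1a*, a cell cycle inhibitor with 4 coding transcripts, was at 4.38 and 10.1 CPM in GR-mKO and 1.12 and 41.0 CPM in GRfl/fl. The mouse clock gene *Per1*, another target, was listed at 0 in the GR-mKO vehicle and GRfl/fl CORT libraries and was not compared.

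Among the receptors of CORT, their chaperones and the supply of ligand, the carrier of CORT in blood fell. Of 13 genes compared, none rose and 1 fell in GR-mKO, 7.69% against 5.61% of all genes compared. The gene that fell was *Serpina6*, corticosteroid-binding globulin, which carries CORT in the blood. It was at 403 and 85.4 CPM in GR-mKO and 284 and 59.9 CPM in GRfl/fl, changes of -2.23 and -2.24 that differed by 0.00 (counting interval -0.11 to 0.12). *Nr3c1* itself had a change of -0.29 (-0.41 to -0.17) in GR-mKO and -0.36 in GRfl/fl. *Hsd11b1*, the enzyme that regenerates CORT from its inactive form, was at 211 and 286 CPM (0.44), and the GR chaperones *Hsp90aa1* and *Fkbp4* had changes of 0.76 and 0.39 (1.44 and 0.64 in GRfl/fl).

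The palindromic GR element, AGAACA followed after 3 bases of any kind by its reverse complement, is rare in promoters of this length. It reads the same on both strands and was searched in the 32851 RefSeq promoters of 300 bases, and 3 of them held it, 0.00913%. Among the genes compared in liver these were *Acnat2* and *Sgk1*, and their promoters are shown because the same element stood before genes that changed in unlike ways. *Acnat2*, an acyl transferase of peroxisomes that was looked at only after this match, was at 8.86 and 104 CPM in GR-mKO and 2.71 and 202 CPM in GRfl/fl, rises of 3.49 and 5.98. *Sgk1*, a kinase known as a GR target, was at 13.0 and 8.33 CPM in GR-mKO (-0.61) and 11.8 and 6.23 CPM in GRfl/fl (-0.87). The single site AGAACA, part of the palindrome, was in 18.97% of all promoters and, counted by gene, in 15.77% of the genes compared, in 14.3% of those that rose in GR-mKO and in 17.3% of those that fell. Capitals mark the palindrome, at chr4:49408102-49408401 (minus strand) and chr10:21993640-21993939 (plus strand, 1 of the starts listed for *Sgk1*). A match is a description of the letters and not a site of binding.
Acnat2: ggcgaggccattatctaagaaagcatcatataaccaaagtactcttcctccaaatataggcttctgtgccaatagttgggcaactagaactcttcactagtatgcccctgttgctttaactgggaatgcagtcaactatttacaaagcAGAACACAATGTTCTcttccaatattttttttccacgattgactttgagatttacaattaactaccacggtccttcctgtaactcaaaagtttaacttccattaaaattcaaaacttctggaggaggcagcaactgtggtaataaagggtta
Sgk1: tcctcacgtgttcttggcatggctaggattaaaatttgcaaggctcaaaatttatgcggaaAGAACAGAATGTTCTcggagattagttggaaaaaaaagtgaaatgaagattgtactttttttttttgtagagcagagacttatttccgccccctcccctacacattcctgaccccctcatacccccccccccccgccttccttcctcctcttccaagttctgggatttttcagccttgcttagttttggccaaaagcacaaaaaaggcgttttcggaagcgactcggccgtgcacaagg

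Of the genes of glucose output, *G6pc* rose in both genotypes and *Pck1* fell in GRfl/fl. Of 25 compared, 1 rose and 1 fell in GR-mKO (8.0% against 5.61% of all genes compared). In GRfl/fl 4 rose and 2 fell, where 11.6% of all genes compared passed 2-fold. The gene that fell in GR-mKO was *Pck2* (-1.09), which was higher with CORT in GRfl/fl (0.89). *G6pc*, which releases free glucose, rose from 184 to 469.97 CPM (1.35, 1.29 to 1.40) and from 247 to 521.8 CPM in GRfl/fl (1.08, 1.03 to 1.12). *Pck1*, the first committed enzyme of gluconeogenesis, stayed within 2-fold in GR-mKO, at 2250.3 and 1894 CPM, and was at 2563 and 762 CPM in GRfl/fl. The GRfl/fl CORT library was the lowest of the 4, with changes of -0.25 in GR-mKO and -1.75 in GRfl/fl (counting interval of the difference 1.47 to 1.53). *Ppp1r3b*, a glycogen-targeting subunit of protein phosphatase, was at 87.0 and 104 CPM in GR-mKO and at 16.6 and 152 CPM in GRfl/fl. Here it was the GRfl/fl vehicle library that stood apart, and the change was 0.25 in GR-mKO against 3.16 in GRfl/fl.

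In the insulin pathway, *Irs2* and *Igfbp1*, genes that insulin is known to lower, had changes of opposite sign in the 2 genotypes. 3 of 24 genes rose and 1 fell in GR-mKO (16.7% against 5.61% of all genes compared). In GRfl/fl 1 rose and 4 fell, where 11.6% of all genes compared passed 2-fold. *Irs2*, an adaptor of the insulin receptor, was at 5.20 and 15.1 CPM in GR-mKO and 15.2 and 9.85 CPM in GRfl/fl. The GR-mKO vehicle library was the lowest of the 4, and the changes were 1.45 (1.15 to 1.75) and -0.60 (-0.84 to -0.34). *Igfbp1*, which binds insulin-like growth factors and is lowered by insulin, was at 18.2 and 45.9 CPM in GR-mKO and at 37.8 and 13.9 CPM in GRfl/fl, changes of 1.31 and -1.41. Both genes have 1 coding transcript. *Sesn2*, a stress-induced regulator of growth signalling, rose by 1.08 in GR-mKO (0.14 in GRfl/fl), and the pseudokinase *Trib3* fell in both (-1.02 and -1.38). *Trib1* (0.30 and -1.32) and *Foxo3* (-0.46 and -1.35) stayed within 2-fold in GR-mKO. *Insr*, the insulin receptor, was at 68.9 and 69.5 CPM.

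Genes of fatty acid synthesis changed in both directions in GR-mKO, and more of them rose in GRfl/fl. Of 25 compared, 1 rose and 2 fell in GR-mKO (12% against 5.61% of all genes compared, median -0.18), whereas 10 rose and 3 fell in GRfl/fl (median 0.27). *Fasn*, fatty acid synthase, was at 241 and 202 CPM in GR-mKO and at 81.2 and 253 CPM in GRfl/fl. *Thrsp*, a regulator of lipogenesis with 1 coding transcript, was at 697 and 359.8 CPM in GR-mKO and 226 and 736 CPM in GRfl/fl. For both genes the GRfl/fl vehicle library was the lowest of the 4, the GR-mKO vehicle library was more than 2-fold above it, and the CORT libraries of the genotypes were closer to each other than the vehicle libraries. The changes were -0.25 and 1.63 for *Fasn*, and -0.95 and 1.70 for *Thrsp*. *Elovl6*, an elongase, had changes of -0.48 and 1.31, and *Mid1ip1*, an activator of acetyl-CoA carboxylase, of 0.10 and 2.21 (5 and 4 coding transcripts). 3 genes of the list were more than 2-fold higher in the GR-mKO than in the GRfl/fl vehicle library and none was lower. *Acaca*, acetyl-CoA carboxylase, which has 7 coding transcripts, differed less with vehicle, at 73.2 and 94.4 CPM in GR-mKO and 53.0 and 173 CPM in GRfl/fl. *Pklr*, pyruvate kinase of liver, was the gene that rose in GR-mKO (1.24, and 2.52 in GRfl/fl), and the desaturases *Fads1* (-1.14 and -2.39) and *Fads2* (-1.34 and -2.23) fell in both. *Me1*, malic enzyme (0.94 and 1.55), and *Acacb*, the second acetyl-CoA carboxylase (0.93 and 1.64), were higher with CORT in both and just within 2-fold in GR-mKO.

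**Figure D3:**
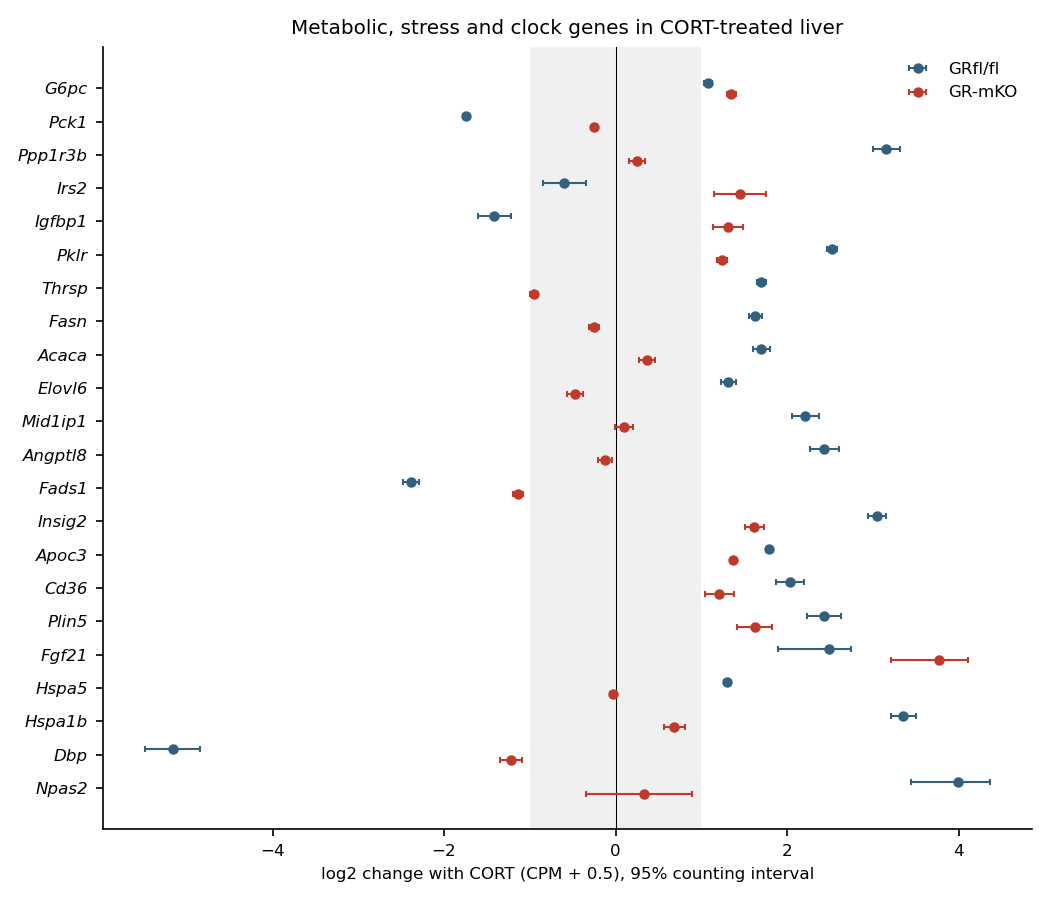
Change with CORT (log2 of CPM + 0.5) of 22 genes of glucose, lipid, stress and clock pathways in GR-mKO (red) and GRfl/fl (blue) liver, with 95% counting intervals as bars and the range within 2-fold shaded. The genes were chosen after their values were seen, to show both those that moved alike (*G6pc*, *Plin5*, *Apoc3*) and those that did not (*Thrsp*, *Igfbp1*, *Ppp1r3b*, *Npas2*).

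Lipid uptake and storage genes rose and fell in both genotypes. Of 25 compared, 2 rose and 4 fell in GR-mKO (24% against 5.61% of all genes compared). In GRfl/fl 4 rose and 5 fell, where 11.6% of all genes compared passed 2-fold. The risers in GR-mKO were *Plin5*, a lipid droplet coat protein, from 11.8 to 37.3 CPM (1.62, and 2.43 in GRfl/fl), and the fatty acid transporter *Cd36*, from 19.8 to 46.5 CPM (1.21, and 2.03). *Cd36* has 6 coding transcripts. *Lpl*, lipoprotein lipase, fell from 24.3 to 6.35 CPM and *Fabp1*, the liver fatty acid binding protein, from 2624 to 1155 CPM, changes of -1.85 and -1.18 against -1.92 and -1.87 in GRfl/fl. *Plin2*, another droplet coat protein, was at 140.1 and 269.98 CPM (0.94). *Angptl8*, an insulin-induced inhibitor of lipoprotein lipase, was at 117 and 107 CPM in GR-mKO and at 14.9 and 82.7 CPM in GRfl/fl, so that here too the GRfl/fl vehicle library was the lowest of the 4. Among 24 genes of lipoproteins, *Apoa4* and *Apoc3* rose in GR-mKO and the endothelial lipase gene *Lipg* fell (12.5% against 5.61% of all genes compared). In GRfl/fl 5 of them rose and 3 fell, where 11.6% of all genes compared passed 2-fold. *Apoc3*, an inhibitor of triglyceride clearance, went from 1218 to 3143 CPM (1.37) and in GRfl/fl from 988 to 3406 CPM (1.79).

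Among targets of the fasting receptor PPARα, those that rose were 2 secreted hormones, a fatty acid hydroxylase and 3 thioesterases. 6 of 31 rose and 2 fell in GR-mKO (25.8% against 5.61% of all genes compared, median 0.33). In GRfl/fl 8 rose and 8 fell, where 11.6% of all genes compared passed 2-fold. *Fgf21*, a fasting hormone of the liver, was at 0.193 and 8.93 CPM in GR-mKO and at 0.0955 and 2.84 CPM in GRfl/fl. Both vehicle libraries were near the floor and the GR-mKO CORT library was the highest, for changes of 3.77 (3.21 to 4.11) and 2.49 (1.90 to 2.74). *Gdf15*, a stress hormone, went from 6.22 to 48.2 CPM (2.86) and in GRfl/fl from 9.85 to 19.9 CPM (0.98). *Cyp4a14*, a fatty acid hydroxylase, went from 253 to 2052 CPM (3.02), and the thioesterases *Acot1*, *Acot2* and *Acot3* rose by 1.26, 1.29 and 1.37. Genes of mitochondrial fatty acid oxidation such as *Hadha* (0.10) and *Acadvl* (0.06) were within 2-fold. *Cpt1a*, the entry step of that pathway with 4 coding transcripts, was at 273 and 189 CPM in GR-mKO (-0.52) and at 321 and 113 CPM in GRfl/fl.

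Most cholesterol synthesis and uptake genes were lower with CORT, 18 of them in GR-mKO. In that genotype 4 of 26 fell and 1 rose (19.2% against 5.61% of all genes compared), with a median of -0.37. In GRfl/fl 10 fell and 1 rose (median -0.76), where 11.6% of all genes compared passed 2-fold. *Insig1* fell by 1.28, *Sc5d* by 1.24 and *Msmo1* by 1.16 on the log2 scale. All are genes that the sterol-regulated transcription factor SREBP2 is known to raise or that act in sterol synthesis. The gene that rose was *Insig2*, which holds SREBP in the endoplasmic reticulum and has 11 coding transcripts, from 38.1 to 118 CPM in GR-mKO and 40.6 to 340.4 CPM in GRfl/fl.

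*Cyp7a1* and *Cyp8b1* of bile acid synthesis moved in opposite directions. *Cyp7a1*, the rate-limiting enzyme, fell from 152 to 59.9 CPM in GR-mKO (-1.34, -1.43 to -1.24), and was at 121 and 64.7 CPM in GRfl/fl (-0.89). *Cyp8b1*, which directs synthesis to cholic acid, rose from 127 to 262 CPM (1.04) and from 220.2 to 582 CPM in GRfl/fl (1.40). *Cyp7b1* of the alternative pathway fell in both genotypes. In the list as a whole, 1 of 25 rose and 5 fell in GR-mKO (24% against 5.61% of all genes compared). In GRfl/fl 2 rose and 6 fell, where 11.6% of all genes compared passed 2-fold. The sterol exporter gene *Abcg8* was among those that fell (-1.08, and -1.92 in GRfl/fl), and the bile salt export pump *Abcb11* was at 296 and 403 CPM in GR-mKO.

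The xenobiotic P450 genes moved unequally. Of 27 receptors and targets compared, 4 rose and 3 fell in GR-mKO (25.9% against 5.61% of all genes compared). In GRfl/fl 8 rose and 5 fell, where 11.6% of all genes compared passed 2-fold. Over the P450 families 1 to 4 in the files, 61 of 80 genes could be compared, of which 11 rose and 8 fell in GR-mKO (31.1%). Of the same genes 15 rose and 8 fell in GRfl/fl. *Cyp3a11*, the main drug-oxidising P450 of its family, was at 2438 and 4194 CPM in GR-mKO (0.78) and at 1507 and 6386 CPM in GRfl/fl (2.08). *Cyp2e1* fell from 8707 to 3858 CPM (-1.17) and *Cyp1a2* from 877 to 429.8 CPM (-1.03). *Alas1*, the first enzyme of heme synthesis with 6 coding transcripts, had a change of -0.92 in GR-mKO and -3.26 in GRfl/fl. *Cyp2a4*, a steroid hydroxylase with 1 coding transcript, was the rise without a counterpart, at 0.322 and 11.8 CPM in GR-mKO and 0.805 and 0.449 CPM in GRfl/fl. The GR-mKO CORT library alone was above 1 CPM, with changes of 3.90 (3.33 to 4.29) and -0.46 (-1.09 to 0.20). Of its 31-base words 55.9% occur in other genes, and the close relative *Cyp2a5* was in the opposite direction in GR-mKO (-0.83).

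The circadian rhythm genes that could be compared were lower or within 2-fold in GR-mKO, and in GRfl/fl some rose and some fell. 5 of 23 fell and none rose in GR-mKO (21.7% against 5.61% of all genes compared). In GRfl/fl 5 fell and 6 rose, where 11.6% of all genes compared passed 2-fold. *Arntl* and *Per1* of the list were at 0 in the GR-mKO vehicle library and were not compared. Both were higher with CORT in GR-mKO (2.92 and 3.41, against 3.75 and -5.74 in GRfl/fl). *Dbp*, a clock-driven transcription factor, was at 74.1 and 31.6 CPM in GR-mKO and at 124 and 2.97 CPM in GRfl/fl. All 4 libraries stood apart from each other, and the changes of -1.22 and -5.16 differed by 3.95 (3.61 to 4.29). *Npas2*, an activator of the clock, was at 0.243 and 0.432 CPM in GR-mKO and at 0.239 and 11.3 CPM in GRfl/fl, where the CORT library alone was high. *Clock* followed the same order, with 18.6 and 31.7 CPM in GR-mKO and 13.1 and 50.2 CPM in GRfl/fl (0.75 and 1.90). *Ciart*, a repressor of the clock with 6 coding transcripts, fell in both, from 24.2 to 4.06 CPM (-2.44) and from 19.9 to 1.29 CPM (-3.51). *Per3* (-1.22 and -1.92) and *Usp2* (-1.11 and -2.88) fell in both as well. *Nr1d1*, the clock repressor REV-ERBα, was at 75.9 and 81.3 CPM in GR-mKO and 66.7 and 61.7 CPM in GRfl/fl. Whether the mice of each group were sampled at the same hour was not stated, and its part in these differences was not tested.

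The promoters of *Ciart* and of the P450 genes *Cyp2b10* and *Cyp2a4*, which are not clock genes, are shown for the clock motifs they hold. The D-box TTATGCAA, the letters that DBP and its relatives bind, was searched on both strands and was in 0.743% of all promoters. Counted by gene, it was in 0.868% of the genes compared, in 1.39% (4 of 287) of those that rose in GR-mKO and in 2.01% (5 of 249) of those that fell. It was in the promoters of *Cyp2b10* (chr7:25897408-25897707, plus strand) and *Cyp2a4* (chr7:26306942-26307241, plus strand), once in each, and among the 68 genes looked up it was also in promoters of *Per1* and *Rnase2a*. The E-box CACGTG, the letters that the CLOCK complex binds and its own reverse complement, was in 7.15% of all promoters and, by gene, in 11.4% of the genes compared, 10.8% of those that rose and 10.4% of those that fell in GR-mKO. It occurred 3 times in that of *Ciart* (chr3:95882179-95882478, minus strand). Capitals mark the D-box in the first pair and the E-box in *Ciart*, and the motifs do not overlap.
Cyp2b10: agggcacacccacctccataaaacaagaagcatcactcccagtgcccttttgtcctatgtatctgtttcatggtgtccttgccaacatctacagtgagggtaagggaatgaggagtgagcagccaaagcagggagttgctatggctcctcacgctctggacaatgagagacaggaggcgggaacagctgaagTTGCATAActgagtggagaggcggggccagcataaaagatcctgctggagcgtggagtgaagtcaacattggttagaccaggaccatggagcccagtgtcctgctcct
Cyp2a4: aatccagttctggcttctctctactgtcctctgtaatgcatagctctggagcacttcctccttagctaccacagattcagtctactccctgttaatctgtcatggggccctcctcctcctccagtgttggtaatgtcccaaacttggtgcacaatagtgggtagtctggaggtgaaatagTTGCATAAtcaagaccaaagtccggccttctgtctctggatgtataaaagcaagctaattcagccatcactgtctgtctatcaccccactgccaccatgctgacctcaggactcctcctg
Ciart: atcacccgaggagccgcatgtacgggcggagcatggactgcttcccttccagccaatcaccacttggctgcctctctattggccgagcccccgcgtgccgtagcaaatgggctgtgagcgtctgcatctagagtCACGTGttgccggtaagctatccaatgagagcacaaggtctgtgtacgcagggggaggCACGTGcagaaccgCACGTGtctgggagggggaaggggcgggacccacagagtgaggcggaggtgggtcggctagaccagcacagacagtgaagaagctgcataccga

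Amino acid breakdown and urea cycle genes, which GR is known to raise, passed 2-fold in GR-mKO about as often as all genes compared. Of 39 compared, none rose (2.8% of all genes compared rose) and 3 fell in GR-mKO. Together this was 7.69% against 5.61% of all genes compared, with a median of -0.03. In GRfl/fl 2 rose and 6 fell, where 11.6% of all genes compared passed 2-fold. The 3 in GR-mKO were *Oat*, ornithine aminotransferase (757 to 264 CPM, -1.52), *Agxt*, an alanine-glyoxylate aminotransferase (159.9 to 61.7 CPM, -1.37), and the cationic amino acid transporter *Slc7a2* (419 to 195 CPM, -1.10). *Tat*, tyrosine aminotransferase and a textbook GR target, was lower with CORT in both genotypes (-0.85 and -1.47). The urea cycle enzymes *Cps1* (-0.03), *Ass1* (0.10) and *Arg1* (0.33) stayed within 2-fold in both, and *Asl* was at 0.32 in GR-mKO and 1.04 in GRfl/fl.

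Most acute-phase genes stayed within 2-fold in GR-mKO, where a few secreted proteins rose and a pair of serum amyloids fell. Of 33 compared, 4 rose and 2 fell in GR-mKO (18.2% against 5.61% of all genes compared). The 4 that rose were *Lcn2*, *Orm3* (1.61), the lipopolysaccharide-binding protein *Lbp* (54.8 to 150.5 CPM, 1.45) and haptoglobin, *Hp* (1397 to 3062 CPM, 1.13). *Saa1* (-1.97) and *Saa3* (-1.12) fell in GR-mKO, while *Saa2* (-0.44) and *Saa4* (-0.63) did not pass 2-fold. In GRfl/fl all of these fell (*Saa1* -3.49, *Saa2* -2.01, *Saa3* -1.09, *Saa4* -1.11). There 4 genes of the list rose and 7 fell, and 11.6% of all genes compared passed 2-fold. *Saa1* was at 26.2 and 6.29 CPM in GR-mKO and at 82.2 and 6.86 CPM in GRfl/fl, so the CORT libraries were alike and the vehicle libraries were not. *Hamp*, hepcidin, the hormone that limits iron uptake, was at 889.7 and 583 CPM (-0.61), and its relative *Hamp2* was at 23.4 and 32.9 CPM in GR-mKO and 13.9 and 1.65 CPM in GRfl/fl (0.48 and -2.74).

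Metallothioneins, which bind zinc and are known to be raised by glucocorticoids, were higher with CORT in both genotypes. Of 9 genes of zinc handling compared, 3 rose and none fell in GR-mKO (33.3% against 5.61% of all genes compared). In GRfl/fl 3 rose and none fell, where 11.6% of all genes compared passed 2-fold. *Mt2* was at 14.7 and 42.8 CPM in GR-mKO and at 15.3 and 162 CPM in GRfl/fl, rises of 1.51 (1.33 to 1.70) and 3.36 (3.20 to 3.53). *Mt1* was at 36.2 and 68.6 CPM, a change of 0.91 that stayed within 2-fold, and at 34.5 and 193 CPM in GRfl/fl. For both genes the vehicle libraries were alike and the GRfl/fl CORT library was the highest. *Slc30a10*, an exporter of manganese, rose from 15.7 to 41.7 CPM (1.38, and 2.31 in GRfl/fl), and *Slc39a5*, a zinc importer, from 0.145 to 2.12 CPM.

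Several cytosolic heat shock genes were higher with CORT in both genotypes, whereas chaperones of the endoplasmic reticulum were near their vehicle level in GR-mKO and higher with CORT in GRfl/fl. In GR-mKO 2 of 24 rose and 1 fell (12.5% against 5.61% of all genes compared, median -0.03), and in GRfl/fl 13 rose and 2 fell (median 1.15), a difference between genotypes that cannot be tested here. *Hspa5*, the main chaperone of the endoplasmic reticulum, was at 561 and 549 CPM in GR-mKO and at 412 and 1018 CPM in GRfl/fl. *Hspa1b*, the inducible cytosolic heat shock protein, was at 43.8 and 70.8 CPM in GR-mKO (0.69) and 19.2 and 201 CPM in GRfl/fl (3.36). In both genes the GRfl/fl libraries lay outside the GR-mKO libraries on either side. *Hyou1* (-0.08 and 1.18), *Pdia4* (0.13 and 1.34) and *Creld2* (-0.36 and 1.69), all of the endoplasmic reticulum, showed the same contrast. Of the cytosolic chaperones, *Hspb1* (1.27 and 1.65) and *Hspa1a* (1.19 and 2.94) rose in both genotypes, and *Dnajb1* (0.89 and 1.39) and *Hspa8* (0.53 and 1.13) rose past 2-fold in GRfl/fl alone. Among 20 targets of the antioxidant factor NRF2, *Gstm3* rose in GR-mKO, from 96.6 to 292 CPM (1.59, and 1.80 in GRfl/fl), and none fell. That share of 5% was near the 5.61% of all genes compared. Within or past 2-fold, 17 of the 20 were higher with CORT in GR-mKO, against 6904 of all 12485 genes. In GRfl/fl 6 of the 20 rose and 1 fell, where 11.6% of all genes compared passed 2-fold.

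**Figure D4:**
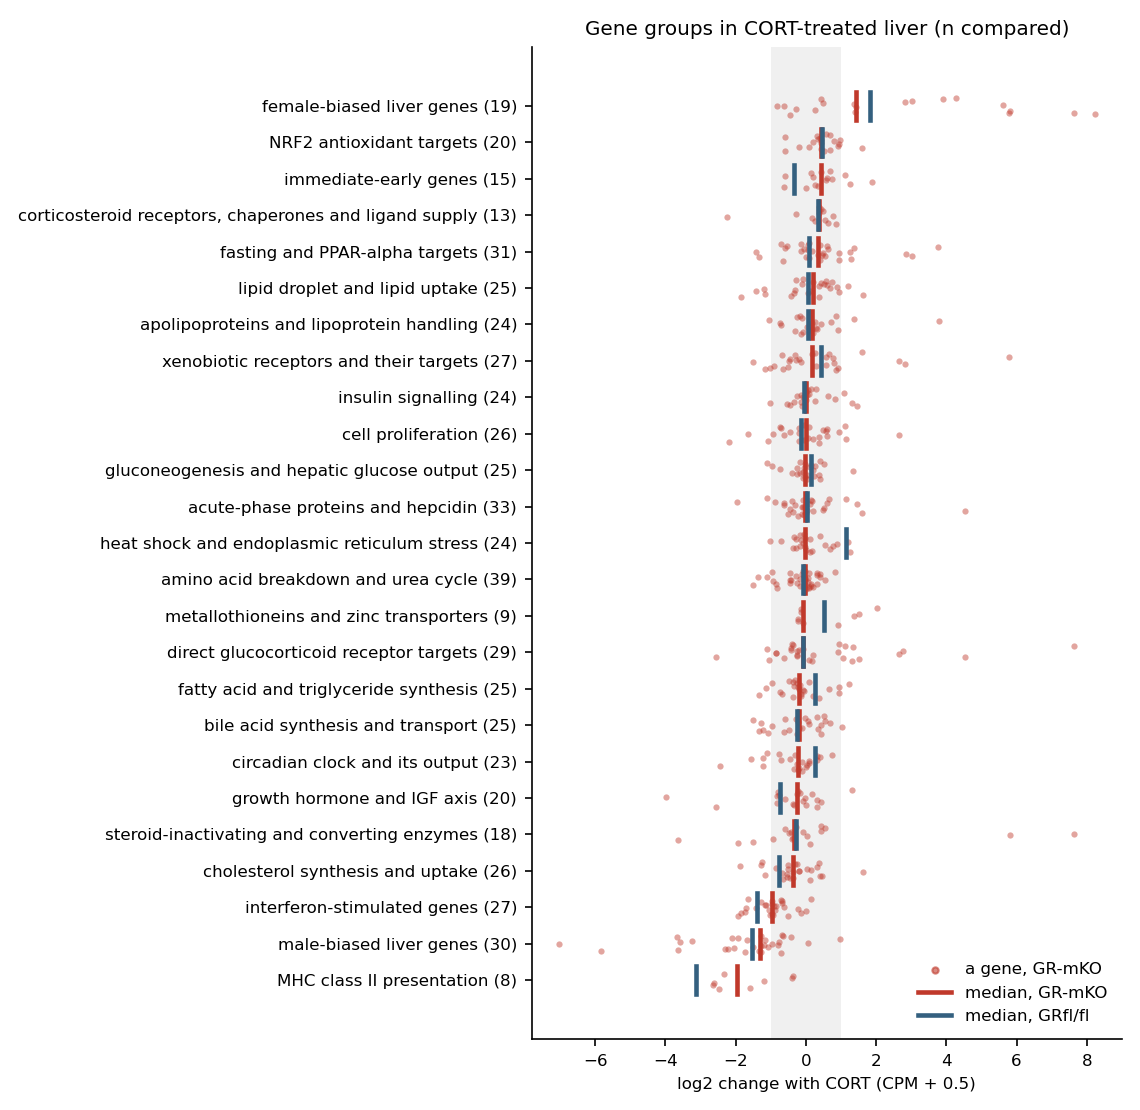
Change with CORT (log2 of CPM + 0.5) of the compared members of each gene group in GR-mKO liver, 1 red point per gene, with the group median in GR-mKO (red bar) and in GRfl/fl (blue bar), and the range within 2-fold shaded. MHC class II, male-biased and interferon-stimulated genes lie to the left and female-biased genes to the right in both genotypes, and the medians are farthest apart for heat shock and endoplasmic reticulum stress and for MHC class II.

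Genes of antigen presentation and interferon signalling were lower with CORT. 6 of the 8 MHC class II genes compared fell and none rose in GR-mKO (median -1.96), against 2.82% of all genes compared that fell. In GRfl/fl 7 fell (median -3.13), against 5.72% of all genes compared. The GR-mKO median was -1.18 when members at 0 in some of the libraries were counted in. *H2-Aa*, a chain of the class II molecule, was at 26.6 and 3.81 CPM in GR-mKO and at 25.4 and 1.08 CPM in GRfl/fl. *Cd74*, the invariant chain, was at 49.8 and 8.55 CPM in GR-mKO and at 60.9 and 3.504 CPM in GRfl/fl. In both genes the vehicle libraries were alike and both CORT libraries were low, the GRfl/fl library lower. The changes of *Cd74* were -2.47 (-2.70 to -2.25) and -3.94 (-4.25 to -3.63). *Ciita*, the master activator of the class II genes, was at 0 in both CORT libraries and at 0.534 CPM in the GR-mKO vehicle library.

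Of 27 interferon-stimulated genes compared, 11 fell and none rose in GR-mKO (median -0.95), against 2.82% of all genes compared that fell. In GRfl/fl 19 fell and none rose (median -1.38), against 5.72% of all genes compared. *Oasl1* of the list was at 0 in a liver library and not compared, and its changes were 3.68 in GR-mKO and -2.49 in GRfl/fl. *Irf7*, a factor that amplifies the interferon response, went from 14.3 to 3.39 CPM (-1.93, and -2.49 in GRfl/fl). *Ifit3* (-1.84), an antiviral effector, and the chemokine *Cxcl9* (-1.75) fell as well, each to under 2 CPM, where the added 0.5 CPM understates a fall.

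Most markers of macrophages and of lymphocytes were also lower with CORT. The 10 neutrophil markers, of which 2 could be compared, summed to 3.20 CPM with vehicle and 3.00 CPM with CORT in GR-mKO. Their sums in GRfl/fl were 3.64 and 3.05 CPM. The 12 Kupffer cell and macrophage markers, all above 0 in each library, summed to 269 CPM with vehicle and 166 CPM with CORT in GR-mKO, and to 336 and 111 CPM in GRfl/fl. 1 of the 12 fell in GR-mKO and 10 in GRfl/fl (median changes -0.71 and -1.51), against 2.82% and 5.72% of all genes compared. *Clec4f*, a lectin of Kupffer cells, was at 41.2 and 25.9 CPM in GR-mKO and 49.5 and 17.1 CPM in GRfl/fl. *Csf1r*, the receptor macrophages need to survive, was the marker that fell in GR-mKO (-1.27, and -2.46 in GRfl/fl), and *Marco*, a scavenger receptor, was higher with CORT in both, just under 2-fold (1.00 and 0.97). The 15 lymphocyte markers summed to 17.6 CPM with vehicle and 4.16 CPM with CORT in GR-mKO, and to 14.6 and 3.41 CPM in GRfl/fl. None of the 15 was at 0 in the GR-mKO vehicle library and 5 were in the GR-mKO CORT library, among them *Trac*. *Ighm* was at 5.54 and 1.54 CPM. The part of these cells in the falls of the class II and interferon genes was not tested. Sinusoidal endothelial markers summed to 221 and 197 CPM in GR-mKO (231 and 130.5 in GRfl/fl), and stellate cell markers to 214 and 190.3 CPM.

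**Figure D5:**
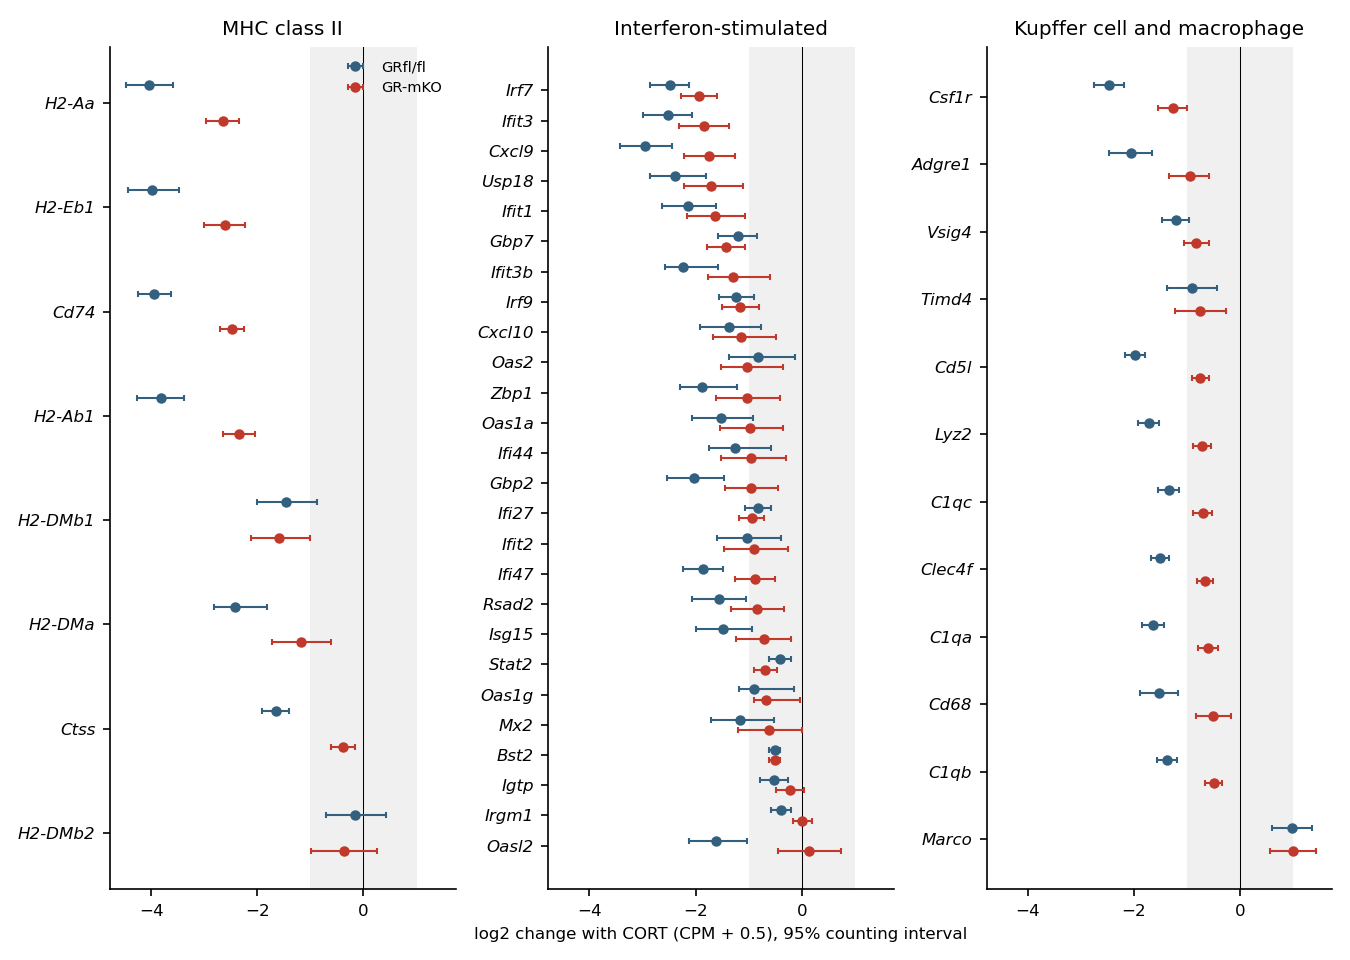
Change with CORT (log2 of CPM + 0.5, 95% counting intervals as bars) of MHC class II genes (left), interferon-stimulated genes (middle) and Kupffer cell and macrophage markers (right) in GR-mKO (red) and GRfl/fl (blue) liver, with the range within 2-fold shaded. Nearly all points lie to the left of 0 in both genotypes, *Marco* lies to the right, and most GR-mKO macrophage markers lie within 2-fold.

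Globin genes went in opposite directions in the 2 genotypes, past 2-fold in GRfl/fl alone. The globin *Hba-a1* was at 163 and 291 CPM in GR-mKO and at 247 and 103 CPM in GRfl/fl (0.84 and -1.26), and *Hbb-bs* at 222 and 382 CPM and at 344 and 131 CPM (0.78 and -1.39). The GRfl/fl CORT library was the lowest of the 4 and the GR-mKO CORT library the highest. How much blood each liver held was not measured, and its part in the values of other blood cell genes was not tested.

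Immediate-early genes, which respond within minutes to stimuli including handling, were mostly higher with CORT in GR-mKO (12 of those compared). Of all 12485 genes compared, 6904 were higher with CORT in GR-mKO. Of 15 immediate-early genes compared, 3 rose and none fell in GR-mKO (20% against 5.61% of all genes compared, median 0.42). In GRfl/fl 1 rose and 4 fell (median -0.35), where 11.6% of all genes compared passed 2-fold. *Jun* was at 34.3 and 127 CPM in GR-mKO and at 43.9 and 52.3 CPM in GRfl/fl, and the GR-mKO CORT library was the highest of the 4. *Egr1* was likewise highest there, at 6.06 and 15.1 CPM in GR-mKO and 7.39 and 5.71 CPM in GRfl/fl (1.25 and -0.35). Among 26 genes of proliferation, 3 rose and 3 fell in GR-mKO (23.1% against 5.61% of all genes compared), with inhibitors of the cycle on both sides. In GRfl/fl 4 of the 26 rose and 3 fell. *Ccnd1*, the cyclin of entry into the cell cycle, fell from 22.4 to 6.75 CPM in GR-mKO (-1.66, and -2.39 in GRfl/fl), and *Gadd45g* fell by 2.19 on the log2 scale. *Mki67*, present only in cycling cells, was at 0.340 and 0.784 CPM.

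The largest differences between the genotypes' responses, among genes at 5 CPM or more in 1 of the 4 libraries, included genes that were high in 1 CORT library alone. *Rnase2a*, a secreted ribonuclease with 1 coding transcript, was at 0.384 and 3.34 CPM in GR-mKO and at 0.238 and 71.1 CPM in GRfl/fl, changes of 2.12 and 6.60 that differed by -4.48 (-5.15 to -3.81). *Cyp26a1*, which breaks down retinoic acid, was at 11.96 and 17.2 CPM in GR-mKO and 7.02 and 95.9 CPM in GRfl/fl. *Ly6d* was at 1.39 and 4.02 CPM and at 0.429 and 22.8 CPM. In these 3 genes the GRfl/fl CORT library was the highest of the 4. *Raet1d* and *Raet1e*, ligands of the natural killer cell receptor NKG2D, changed in opposite directions in the 2 genotypes, *Raet1d* from 12.3 to 1.71 CPM in GR-mKO and from 6.66 to 32.4 CPM in GRfl/fl. *Raet1e* followed, with 2.86 and 0.887 CPM in GR-mKO and 1.16 and 8.21 CPM in GRfl/fl, and 65.1% and 53.7% of the 31-base words of these transcripts occur in other genes. *Osbpl9* was lower with CORT in GR-mKO, at 79.2 and 11.7 CPM against 42.0 and 67.8 CPM, and has 7 coding transcripts.

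In the other direction, *Mfsd2a*, a transporter of lysophospholipids, was at 73.2 and 140.2 CPM in GR-mKO and at 52.3 and 13.6 CPM in GRfl/fl. The vehicle libraries lay between the CORT libraries, and the changes of 0.93 and -1.90 differed by 2.83 (2.63 to 3.04). *Itgb2*, a chain of the leukocyte integrins, was at 1.71 and 2.26 CPM in GR-mKO and 5.02 and 0.297 CPM in GRfl/fl. *Stx16* (6 coding transcripts), *Tdrd7* and *Brat1* had changes of 3.34, 1.90 and 0.14 in GR-mKO and -0.86, -1.06 and -2.74 in GRfl/fl, and 96.4%, 94.5% and 95.2% of their 31-base words occur in another transcript of the same gene. *Dbp*, *Cyp2a4*, *Hamp2*, *Cdkn1a* and *Npas2*, described above, completed the 16 largest differences.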

How the data were processed

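RNA was pooled from 3 male mice per group before 1 library was made, sequenced as paired reads on a DNBSEQ platform. The authors quantified the reads with Salmon 1.2.1 against the protein-coding transcripts of GENCODE M20 (mm10) and imported the estimates into R 3.5.0 with tximport (lengthScaledTPM). Of entries that bore the same gene name, the authors retained the most abundant. The deposited values are estimated counts, not scaled between libraries. Each entry bears 1 transcript identifier and was treated here as a single transcript standing for its gene, although the methods name a step that sums transcripts to genes. The authors compared groups with NOISeq, whose results were not used here, and the adipose tissue libraries were not used here.

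Counts were divided by the library total to give CPM, and the log2 of the ratio of CPM + 0.5 was taken between libraries for the 12485 genes above 0 in all 4 liver libraries. A change was called past 2-fold. With 1 library per group no count model was fitted. Intervals at 95% came from the exact binomial split of the rounded counts of 2 libraries and, for the difference of 2 changes, from a normal approximation to their counting error. The calculation was tested on simulated data. TMM factors came from edgeR 4.0.16 in R 4.3.3, and all else was run in Python 3.11.15 (scipy 1.17.1 for the intervals, pandas 2.3.3 and numpy 2.4.6 for the tables, matplotlib 3.10.9 for the plots). Gene positions are those of GENCODE M21 (GRCm38), in which all 22252 names were found. Promoters came from RefSeq (GRCm38.p6), which listed 1 for 68 of 88 genes looked up, and shared sequence was measured in 31-base words of the coding transcripts.

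Named genes were a panel of 36, the 12 largest rises and 12 largest falls at 5 CPM or more in GR-mKO, the 8 largest differences between genotypes each way at 5 CPM or more, list members past 2-fold and those contrasted with them, and genes listed at 0 in a library. A few genes that these rules name are not reported here. The members, gene lists and motifs were chosen with earlier results of these data known. The alternatives were another pseudocount, scaling, filter on low values or fold.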

Additional observations from a re-analysis of the deposited data

Results flagged for a closer look

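For 13 genes at 5 CPM or more in 1 of the 4 liver libraries, the GR-mKO and GRfl/fl livers changed past 2-fold in opposite directions. With 1 library per group the difference was not tested for any of them. It is given as the GR-mKO change minus the GRfl/fl change on the log2 scale.

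Those with a higher change in GR-mKO were *Tdrd7* (2.96), *Eif4g3* (2.82), *Igfbp1* (2.73) and *Taf4* (2.13). *Igfbp1*, with 1 coding transcript, had the plainest record, at 18.2 and 45.9 CPM in GR-mKO and 37.8 and 13.9 CPM in GRfl/fl. Those with a lower change in GR-mKO were *Raet1d* (-4.73), *Raet1e* (-3.67), *Zfp870* (-2.92), *Rnf111* (-2.89), *D16Ertd472e* (-2.84), *Wars* (-2.82), *Repin1* (-2.81), *Thoc2l* (-2.52) and *Fbxw7* (-2.31). Of the 13, only *Igfbp1* and *Thoc2l* have 1 coding transcript, and the others have between 2 and 9.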

How the results depend on the processing

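With 1 library per group, none could be left out. No paired analysis was possible because the labels give no replicate numbers. Counts of genes that rose or fell in GR-mKO (349 and 352) became 589 and 595 with 0.1 CPM added, 587 and 556 with every gene above 0 in 1 of the 4 libraries, 1178 and 1037 at 1.5-fold and 52 and 40 at 4-fold. Those of GRfl/fl became 1742 and 1649 at 1.5-fold and 135 and 116 at 4-fold, and the count past the fold the same way in both became 1087 and 55. Genes with 1 coding transcript, an alternative chosen after seeing the data that tests fewer genes, gave 97 and 110 in GR-mKO, 215 and 240 in GRfl/fl and 137 in both. The median GRfl/fl change of the genes past 2-fold in GR-mKO (1.05 in the GR-mKO direction) was 0.85 with 0.1 CPM added, 1.18 with 1 CPM, 0.76 with no filter, 1.18 from 50 counts and 1.40 for 1 coding transcript. The cause of these moves of the median was not tested. TMM scaling changed the share of GR-mKO calls that were higher from 49.8% to 43.3%. Of 199 named genes past 2-fold in GR-mKO, 26 were under it in 1 or more alternatives, 24 of them with 1 CPM added, and none changed sign. Of 36 list medians, 5 close to 0 changed sign (gluconeogenesis, insulin signalling, proliferation, neutrophil and adipocyte) and 8 moved by 0.1 or more. The moves reached 1.41 for female-biased genes, whose median of 1.43 was 2.84 with 0.1 CPM added, 0.65 with no filter and 2.82 from 50 counts, and the MHC class II median of -1.96 was -1.18 with no filter.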

Other observations

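Carbonic anhydrase 3 (*Car3*), an abundant male-biased enzyme of liver that was on none of the lists, fell from 2916 to 483 CPM in GR-mKO (-2.59, -2.62 to -2.56) and from 3134 to 1296 CPM in GRfl/fl (-1.27). *Cyp39a1*, an oxysterol hydroxylase, went from 9.67 to 67.4 CPM in GR-mKO and from 4.81 to 65.7 CPM in GRfl/fl, so that both CORT libraries were alike and high. *Celsr1*, a cadherin of planar cell polarity, went from 4.63 to 38.7 CPM and from 3.63 to 52.5 CPM, and the transcription factor gene *Klf10* from 7.30 to 42.7 CPM and from 9.94 to 30.9 CPM. The sorting receptor *Sort1* fell from 14.2 to 1.77 CPM in GR-mKO and from 17.6 to 1.22 CPM in GRfl/fl. These genes, all past 2-fold in both genotypes, were picked after their values were seen.

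Markers of the hepatocytes around the central vein summed to 13233 CPM with vehicle and 7166 CPM with CORT in GR-mKO (13362 and 7018 in GRfl/fl). Of the 11, 3 fell (*Oat*, *Cyp2e1* and *Cyp1a2*), and *Cyp2e1* made up most of the sum. *Glul*, glutamine synthetase of the cells next to the vein, was at 942 and 1234 CPM in GR-mKO. Markers of the hepatocytes near the portal vein summed to 11429 and 12366 CPM in GR-mKO, and none of the 10 rose or fell there. Bile duct markers summed to 39.6 and 56.4 CPM in GR-mKO and 34.2 and 57.6 CPM in GRfl/fl. The exocrine pancreas gene *Cela1* was listed at 0 in the GR-mKO CORT library and was at 5.92 CPM with vehicle.

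Of the 9767 entries that were not compared, 5879 were at 0 in all 4 libraries and 135 were at 5 CPM or more in a GR-mKO library. *Baz2a*, *Lhx6*, *Mdfic*, *Atp2b2*, *Rin2* and *Tti1* were listed at 0 in both vehicle libraries and present in both CORT libraries, and *Rlim*, *Wdr41* and *Pde2a* the reverse. Against the floor of 3 counts per library, *Baz2a* was at least 160.04-fold higher with CORT in GR-mKO and at least 143-fold in GRfl/fl, and *Rlim* at least 140.3-fold and 123-fold lower. All of these genes have 2 or more coding transcripts in the annotation. The clock activator gene *Arntl* was listed at 0 in the GR-mKO vehicle library and was at 3.28 CPM in the GR-mKO CORT, 0.573 CPM in the GRfl/fl vehicle and 13.9 CPM in the GRfl/fl CORT library.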
